A study of Rattus norvegicus with 6 samples.

Results

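Genes of the Z-disc, the intercalated disc and the stretch response were examined in rat myocardium after 30 min of ischemia. The 10 genes were chosen by name (Flnc, Xirp1, Xirp2, Ankrd1, Csrp3, Nrap, Actn2, Ldb3, Myoz2 and Tcap), and the rows carrying those names were taken from the deposited table of 32623 genes. This gave 9 genes; Tcap is not analysed here. All 9 had a mean level above the expression minimum and entered the test with 13964 genes in all.

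The study compared wild-type male rats in 2 groups of 3. In the ischemia group the LAD (the left anterior descending branch of the coronary arteries) was tied off for 30 min after a left thoracotomy under anaesthesia. For the sham group the labels give the sham treatment and the same 30 min. Total RNA of myocardial tissue was sequenced, and the part of the heart that was sampled is not given in the sources used here. The labels do not tie the libraries to individual animals, and p-values measure the spread between these libraries.

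The Z-disc is the boundary of the sarcomere, where actin filaments of neighbouring sarcomeres are crosslinked by alpha-actinin. The intercalated disc joins cardiomyocytes end to end and passes the contractile force from cell to cell. Several proteins at both sites bind actin and also move to, or signal to, the nucleus when the muscle is loaded, and some of their genes are known to be induced by stretch or injury of the heart. The annotation in the table placed 6 of the 9 genes at the Z disc (Flnc, Csrp3, Nrap, Actn2, Ldb3 and Myoz2), a term carried by 100 of the tested genes. Actin binding was annotated for 7 of the 9, and the intercalated disc term for 0 of the 9.

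The libraries held between 68529126 and 79591989 counts, so that counting error was small for these genes, whose counts ranged from 3380 for Xirp2 in sham replicate 2 to 576358 for Ankrd1 in ischemia replicate 2. The libraries differed in ways that bear on the genes. Sham replicates 1 and 3 carried the atrial markers at a summed level of 48740 and 39684 FPKM (fragments per kilobase of gene, scaled to library depth), against 264.01 in sham replicate 2 and 1295 to 9685 in ischemia. Ventricular markers went the other way, with 1166 and 1375 FPKM in sham replicates 1 and 3, 11843 in sham replicate 2 and 3779.6 to 7029 in ischemia. Sham replicate 2 was thus the only control library in which ventricular markers exceeded atrial ones. The 9 genes are given below with all controls and with that library alone. Ischemia replicate 1 also carried more atrial than ventricular marker signal, at 9685 against 7023 FPKM. In ischemia replicates 2 and 3 the atrial sums were 2091 and 1295 FPKM, of which Nppa gave 2051 and 1251. There the other atrial markers (Myl7, Myl4, Sln, Bmp10, Dkk3 and Stard10) were each lower than in sham replicate 2. Over 4 Y-linked genes, sham replicate 1 held 26 reads and the other libraries 1772 to 4366, although the rats were described as male. Neutrophil and monocyte markers summed to 143.9 to 199.6 FPKM in sham and 1294 to 8612 in ischemia, and 10 of 12 rose. The 8 cardiomyocyte markers summed to between 24580.3 and 30928 FPKM in sham and between 10209 and 18634 in ischemia, with 0 of 8 past the test. The part of these differences in the results below was not tested unless a value is given for it. In bulk tissue, fewer cardiomyocytes and less RNA per cardiomyocyte cannot be told apart.

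Promoter sequences are shown for 4 genes because 3 of them (Flnc, Xirp1 and Xirp2) had the highest log2 fold changes, and Ldb3 had the lowest log2 fold change of the 9. They are RefSeq windows of the rat build GRCr8, from 250 bases before to 50 bases after the annotated start, written 5′ to 3′ on the strand of the gene. Capitals mark matches to the M-CAT motif (CATTCC, bound by TEAD factors), the MEF2 site, the CArG box (bound by SRF) or the AP-1 motif (TGANTCA), searched on both strands. The windows lie at chr4:58999297-58999596 (plus strand) for Flnc, chr8:128634962-128635261 (minus) for Xirp1, chr3:72533936-72534235 (plus) for Xirp2 and chr16:9924630-9924929 (minus) for Ldb3. For Xirp1 the first of the windows listed was used.
Flnc: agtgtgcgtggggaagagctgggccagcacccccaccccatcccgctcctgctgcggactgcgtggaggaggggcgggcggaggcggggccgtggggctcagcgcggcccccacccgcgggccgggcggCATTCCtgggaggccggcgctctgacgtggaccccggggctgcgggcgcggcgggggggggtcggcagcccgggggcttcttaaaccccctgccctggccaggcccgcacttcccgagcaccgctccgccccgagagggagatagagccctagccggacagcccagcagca
Xirp1: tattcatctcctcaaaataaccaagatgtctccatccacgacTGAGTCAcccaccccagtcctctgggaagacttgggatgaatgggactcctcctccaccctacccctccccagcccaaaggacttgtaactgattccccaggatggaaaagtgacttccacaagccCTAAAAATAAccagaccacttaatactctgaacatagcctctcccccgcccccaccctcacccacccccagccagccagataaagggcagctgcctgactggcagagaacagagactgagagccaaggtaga
Xirp2: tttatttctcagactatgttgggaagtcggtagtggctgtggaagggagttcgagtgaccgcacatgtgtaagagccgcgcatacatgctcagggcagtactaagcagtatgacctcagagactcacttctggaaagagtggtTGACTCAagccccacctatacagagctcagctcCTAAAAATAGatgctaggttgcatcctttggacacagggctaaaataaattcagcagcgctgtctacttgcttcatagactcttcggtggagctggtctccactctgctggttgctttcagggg
Ldb3: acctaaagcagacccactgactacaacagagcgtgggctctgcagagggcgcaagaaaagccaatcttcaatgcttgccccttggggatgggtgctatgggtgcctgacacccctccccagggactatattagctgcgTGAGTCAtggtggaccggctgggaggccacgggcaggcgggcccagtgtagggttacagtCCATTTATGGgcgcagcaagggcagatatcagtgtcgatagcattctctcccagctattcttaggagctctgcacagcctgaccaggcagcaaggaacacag

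RefSeq windows were matched for 6 of the 9 genes, these 4 and those of Actn2 and Myoz2. The MEF2 site, a motif of muscle genes, was found in 3 of the 6. It read CTAAAAATAA in Xirp1, where it began 82 bases before the start, CTAAAAATAG in Xirp2 (74 bases before) and CTATATATAG in Myoz2 (53 bases before). Among all 33469 windows 1.87% held one. The motif was therefore present both in Xirp1 and Xirp2, which were higher in each ischemia library, and in Myoz2, which was lower. AP-1 motifs stood in 4 of the 6 windows (Xirp1, Xirp2, Ldb3 and Myoz2) against 7.33% of all windows. The single CArG box was in Ldb3 (1.64% of all windows) and the single M-CAT motif in Flnc (14.2%). E-boxes (CANNTG) were in 4 of the 6, at 72.1% of all windows, and GATA boxes (GATA after A or T and before A or G) in 3 of the 6, at 30.3%. In the 250 bases before the start alone, AP-1 motifs stood in 3 of the 6, E-boxes in 3 and GATA boxes in 1, and the MEF2, CArG and M-CAT counts were as in the whole window. The heat shock motif GAANNTTC (8.59% of all windows) and the letters TATAAA (14.2%) were in 0 of the 6. The windows differed in base composition, from 42% G and C in Myoz2 to 77% in Flnc, with a median of 51.7% over all windows. These matches are descriptions of letters in short windows.

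Comparing ischemia with sham, 7 of the 9 genes had values in CPM (counts scaled to library size) that did not overlap between the groups. Flnc, Xirp1, Xirp2 and Csrp3 were higher in all 3 ischemia libraries, and Actn2, Ldb3 and Myoz2 were lower in all 3. Among all tested genes 41.1% did not overlap, 22% higher and 19.1% lower. With the quasi-likelihood test of edgeR, 0 of the 9 genes were higher and 0 were lower at an adjusted p under 0.05, where 6.71% of all genes were called (5.18% higher, 1.53% lower). At an unadjusted p under 0.05 there were 5 of 9 (Flnc, Xirp1, Xirp2 and Csrp3 higher, Ldb3 lower), against 32.4% of all genes (18.2% higher and 14.2% lower). DESeq2 called 4 of the 9 higher and 1 lower, where it called 14.8% of all genes higher and 12.5% lower, and limma on log2 FPKM called 0, where it called 850 of all genes higher and 262 lower with a pseudocount of 0.1. The median log2 fold change of the 9 genes was 0.49, with 6 above and 3 below 0, against a median of -0.0015 over all tested genes.

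**Figure D1:**
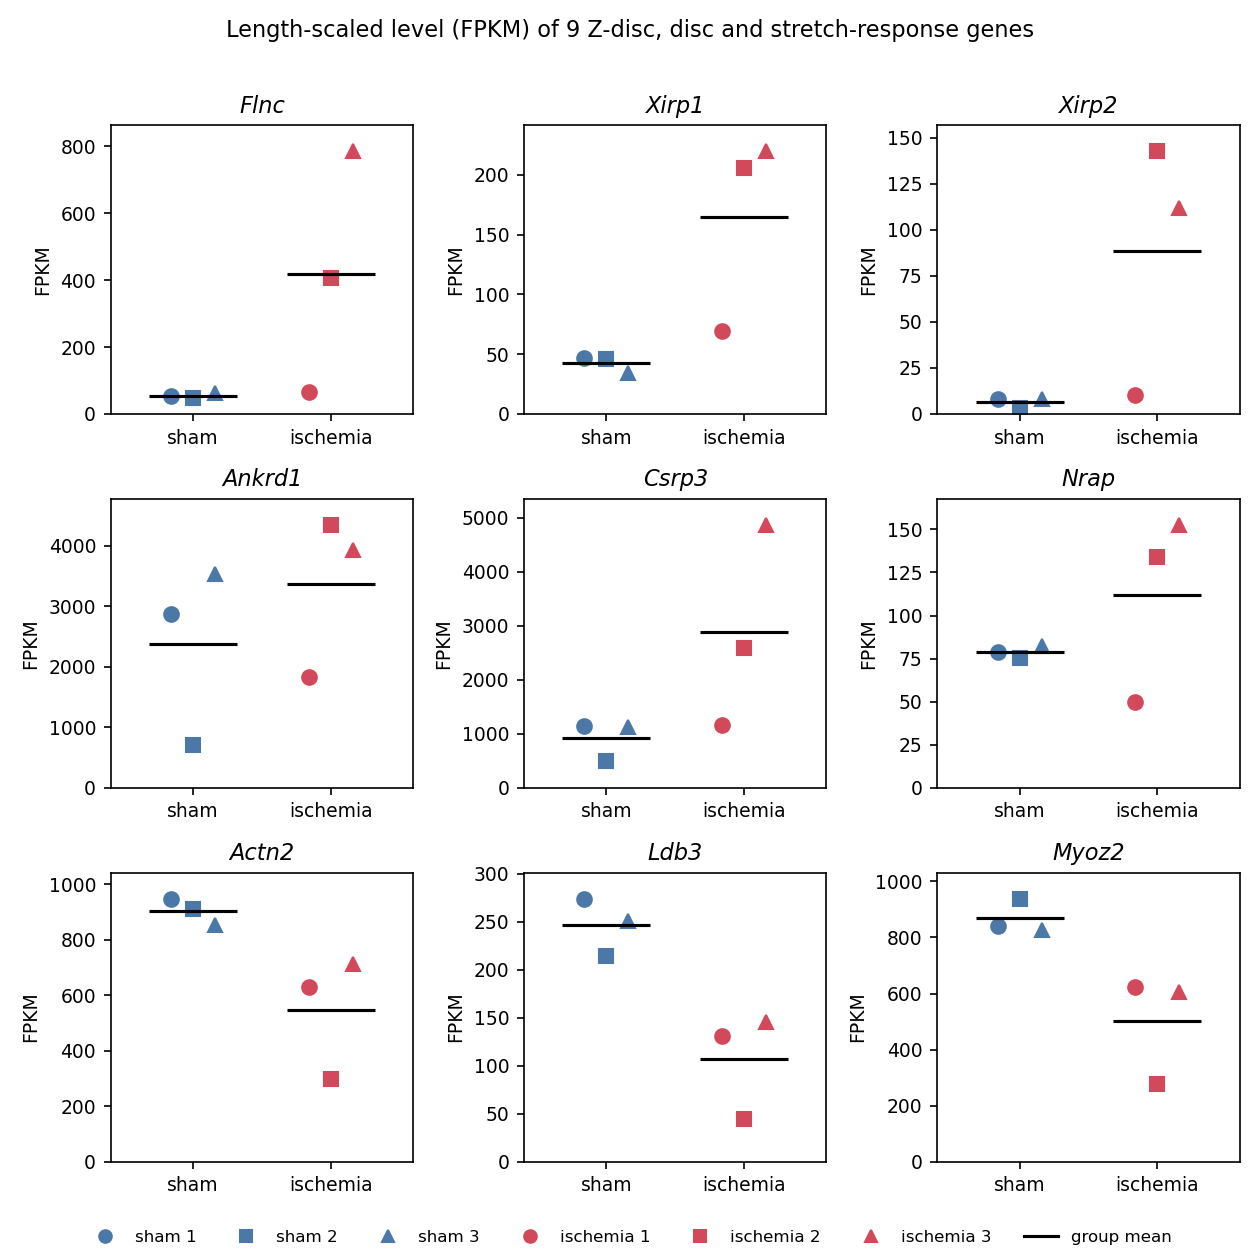
FPKM of the 9 genes (linear axes from 0) in sham (blue) and ischemia (red), with a symbol for each replicate and a line at the group mean. Flnc, Xirp1, Xirp2 and Csrp3 were higher in each ischemia library than in any sham library, with ischemia replicate 1 closest to sham, and Actn2, Ldb3 and Myoz2 were lower in each ischemia library.

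The Xin repeat proteins Xirp1 and Xirp2 bind and stabilise actin filaments at the ends of the myofibrils and at the intercalated disc. Xirp1 lies on chromosome 8 from 128702133 to 128711221 in the coordinates of the table, whose genome build is not given in the sources used here. Its level was 47.1, 46.0 and 34.6 FPKM in sham replicates 1 to 3 and 69.4, 205.9 and 219.8 FPKM in ischemia replicates 1 to 3. The groups did not overlap, and the lowest ischemia library stood 1.47-fold above the highest sham library. The log2 fold change was 1.85 ± 0.48 (SE, n = 3 per group) with an edgeR adjusted p of 0.0652. Mean FPKM was 165.1 ± 83.1 in ischemia against 42.6 ± 6.93 in sham (SD, n = 3 each). An exact permutation test of these FPKM values gave p = 0.1, below which 3 against 3 cannot go.

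Xirp2 (chromosome 3, 53563194 to 53658132) had the largest log2 fold change of the 9 genes, 3.68 ± 0.92 (SE), with an edgeR adjusted p of 0.0603. It was low in sham, at 8.25, 3.44 and 8.17 FPKM, and reached 10.5, 142.6 and 111.8 FPKM in ischemia. Ischemia replicate 1 stood 1.28-fold above the highest sham library. Against sham replicate 2, the lowest, ischemia replicates 1 to 3 were 3.06-fold, 41.4-fold and 32.5-fold higher. Among 13964 genes ordered by FPKM, Xirp2 moved from places 6106, 8249 and 6259 in sham to 5228, 586 and 668 in ischemia. Xirp2 amounted to 17.5%, 7.48% and 23.6% of the FPKM of Xirp1 in sham and to 15.2%, 69.2% and 50.9% in ischemia, and these shares overlapped (exact permutation p 0.3).

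Flnc encodes filamin C, the muscle filamin that crosslinks actin at the Z-disc and at sites of myofibril damage. The gene lies on chromosome 4 from 56711049 to 56738791. The study had selected it from these libraries as an upregulated gene of the MAPK pathway, so its direction in them is not independent evidence. The study also reported higher Flnc by qRT-PCR in ischemic rat myocardium and in hypoxic cardiomyocytes, which was not analysed here. FPKM was 53.7, 47.4 and 62.0 in sham and 66.5, 405.0 and 785.2 in ischemia. Ischemia replicate 1, the ischemia library with the highest sum of atrial markers, exceeded the highest sham library by 1.07-fold. The difference rested on the other ischemia libraries. The log2 fold change of 2.89 ± 0.84 (SE) had an edgeR adjusted p of 0.0803. Leaving out ischemia replicate 3 gave 1.95, and leaving out ischemia replicate 1 gave 3.38 (edgeR adjusted p 0.0149). Without ischemia replicate 1, Xirp1 (2.20, edgeR adjusted p 0.0172), Xirp2 (4.19, 0.0123) and Csrp3 (1.98, 0.0467) passed as well, in a fit that called 10.7% of all genes higher and 7.98% lower. With the atrial marker score as a covariate, the log2 fold change was 1.66 for Flnc, 1.02 for Xirp1, 2.93 for Xirp2, 1.49 for Csrp3 and 1.24 for Ankrd1, and 0 of the 9 genes had an unadjusted p under 0.05, against 2222 of all 13964 genes.

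Csrp3 encodes muscle LIM protein, a Z-disc and nuclear protein linked to the response to stretch. It lies on chromosome 1 from 104147206 to 104166367. Its FPKM was 1149.7, 491.4 and 1129.8 in sham and 1167, 2594 and 4861 in ischemia. Ischemia replicate 1 was level with sham replicates 1 and 3, at 1.02-fold above the higher of them, and the log2 fold change was 1.61 ± 0.58 (SE; edgeR adjusted p 0.121). Without ischemia replicate 3 it was 0.92 (edgeR adjusted p 0.305). In sham, the libraries with atrial markers had 2.32-fold more Csrp3 than sham replicate 2. Against sham replicate 2 alone, the 3 ischemia libraries were 2.38-fold, 5.28-fold and 9.89-fold higher.

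Ankrd1, which encodes the cardiac ankyrin repeat protein, a stretch-responsive partner of titin and of transcription factors, was among the most abundant genes, at places 13 to 112 by FPKM. It lies on chromosome 1 from 254726969 to 254735548. The sham libraries were unequal, with 2871, 701.6 and 3537 FPKM, and the ischemia libraries had 1837, 4342 and 3929.6. The groups overlapped, and the log2 fold change was 0.49 ± 0.59 (SE; edgeR adjusted p 0.587). Sham replicates 1 and 3, which carried the atrial markers, had on average 4.57-fold the level of sham replicate 2. Against that library alone the ischemia libraries were 2.62-fold, 6.19-fold and 5.60-fold higher, and the edgeR log2 fold change was 1.96 with an adjusted p of 0.394. Without sham replicate 2 it was 0.078. The value of Ankrd1 therefore turned on which control library was used.

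Nrap encodes an actin-binding protein of the intercalated disc that takes part in myofibril assembly (chromosome 1, 277104514 to 277181414). The sham libraries lay close together, at 79.1, 75.2 and 82.2 FPKM, and the ischemia libraries fell on both sides of them, with 49.8, 133.8 and 152.5 FPKM. Ischemia replicate 1 was thus below and replicates 2 and 3 were above each sham library. The log2 fold change was 0.42 ± 0.42 (SE; edgeR adjusted p 0.511).

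The 3 remaining genes encode structural parts of the Z-disc, and all had lower levels in ischemia. Actn2, the sarcomeric alpha-actinin (chromosome 17, 66304501 to 66397653), had 947.0, 911.2 and 854.4 FPKM in sham and 630.8, 297.9 and 713.6 in ischemia. Its log2 fold change was -0.80 ± 0.41 (SE; edgeR adjusted p 0.225). Ldb3, also called ZASP or cypher, binds alpha-actinin through its PDZ domain (chromosome 16, 10878334 to 10941501). It had 273.6, 214.3 and 250.7 FPKM in sham and 130.5, 44.0 and 145.1 in ischemia. The highest ischemia library was at 0.677 of the lowest sham library, and the log2 fold change was -1.26 ± 0.49 (SE; edgeR adjusted p 0.135). Myoz2, or calsarcin 1, ties calcineurin to alpha-actinin (chromosome 2, 227180886 to 227207635). Its FPKM was 840.1, 937.9 and 827.3 in sham and 623.7, 276.0 and 603.9 in ischemia, with a log2 fold change of -0.87 ± 0.40 (SE; edgeR adjusted p 0.181). In each of these 3 genes ischemia replicate 2 was the lowest library, which was also the library with the highest summed level of neutrophil and monocyte markers and the lowest of cardiomyocyte markers.

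**Figure D2:**
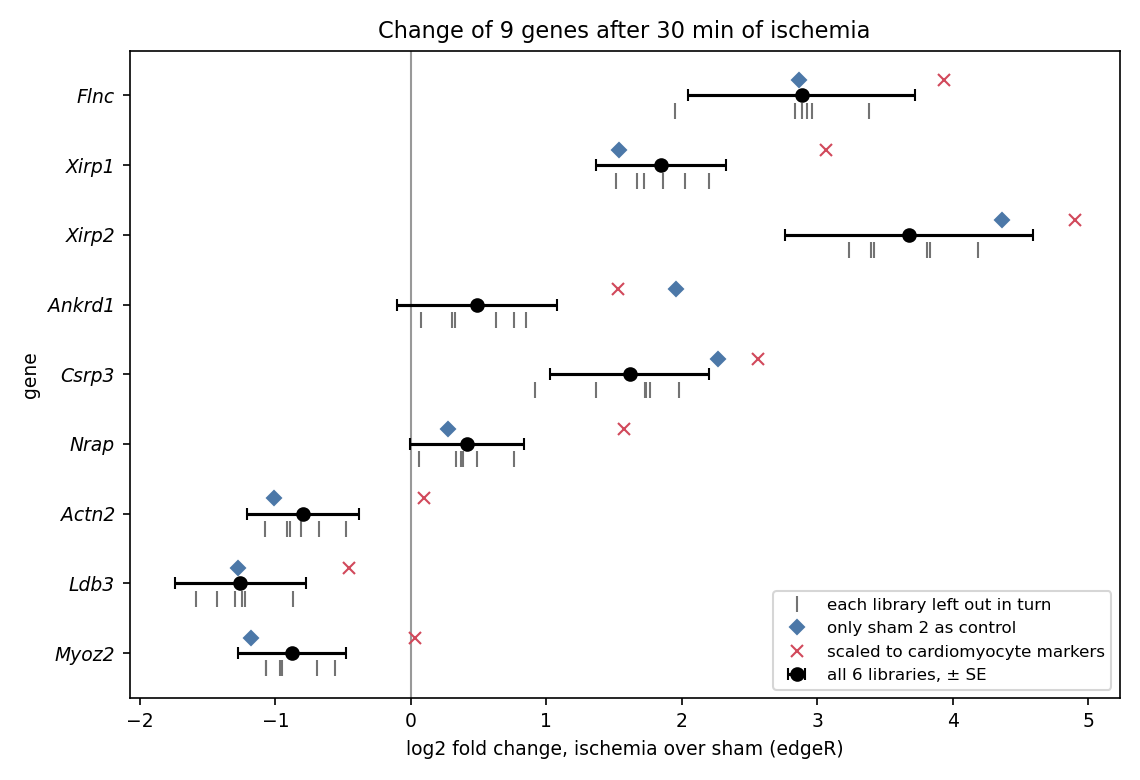
Log2 fold change of ischemia over sham from edgeR for the 9 genes, with the value from all 6 libraries and its SE (black), the values with each library left out (ticks), with sham replicate 2 as the only control (blue) and after scaling to 8 cardiomyocyte markers (red crosses). Flnc, Xirp1, Xirp2 and Csrp3 stayed above 0 and Ldb3 below 0 in all of these, while Actn2 and Myoz2 moved to 0.098 and 0.033 with the marker scaling.

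With sham replicate 2 as the only control, the edgeR log2 fold change was 2.86 for Flnc, 1.54 for Xirp1, 4.36 for Xirp2, 2.27 for Csrp3 and 0.27 for Nrap. It was -1.01 for Actn2, -1.28 for Ldb3 and -1.18 for Myoz2. The direction was the same as with all controls for each of the 9 genes, and the adjusted p ranged from 0.394 to 0.845 in a fit that called 0 of all 13964 genes.

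The spread of the 9 genes was wider in ischemia than in sham for all except Ankrd1. How many of all tested genes had a wider spread in ischemia was not counted. The SD was 4.42% of the mean for Nrap, 5.16% for Actn2 and 6.97% for Myoz2 in sham, and 48.8%, 40.2% and 39.0% in ischemia. For Flnc it was 13.5% in sham and 85.8% in ischemia, and for Ankrd1 62.6% and 39.9%. From ischemia replicate 1 to ischemia replicate 3 the level differed 11.8-fold for Flnc, 10.6-fold for Xirp2, 4.16-fold for Csrp3, 3.17-fold for Xirp1 and 3.06-fold for Nrap. The same libraries differed 1.13-fold for Actn2 and 1.11-fold for Ldb3. Ischemia replicate 3 was the highest library for 4 of the 9 genes (Flnc, Xirp1, Csrp3 and Nrap), and sham replicate 2 the lowest for 4 (Flnc, Xirp2, Ankrd1 and Csrp3).

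Since the 9 genes are expressed mainly in cardiomyocytes, their counts were set against the geometric mean of 8 cardiomyocyte markers (Tnnt2, Tnni3, Tnnc1, Actc1, Mybpc3, Ryr2, Atp2a2 and Ckmt2) in the same library. On this scale Flnc, Xirp1, Xirp2 and Csrp3 were higher in all 3 ischemia libraries. The differences of mean log2 ratio were 3.27 for Flnc, 2.71 for Xirp1, 4.08 for Xirp2 and 2.43 for Csrp3, each with an exact permutation p of 0.1. On the same scale 51.7% of all tested genes were higher in all 3 ischemia libraries and 2.28% lower, so that 4 of 9 was close to the share over all genes. Actn2 and Myoz2 kept nearly the same ratio to the markers, with differences of 0.098 (exact permutation p 0.6) and 0.034 (p 0.8). The log2 ratio of Myoz2 lay between -1.80 and -1.56 in all 6 libraries. For Ldb3 the difference was -0.46 (exact permutation p 0.3), and the groups overlapped. Ankrd1 (1.63) and Nrap (1.27) overlapped too. In edgeR with library sizes set by these markers, Flnc, Xirp1 and Xirp2 had an adjusted p of 0.0410 and Csrp3 of 0.0481, and all 4 passed, where 8.58% of all genes were called higher and 0.208% lower. This scaling moved the median of all tested genes to 1.09, so that the log2 fold changes of 3.93, 3.06, 4.90 and 2.56 for these 4 genes have to be read against that shift. With the 4 ventricular markers as the reference instead, 0 of the 9 genes separated the groups, against 5.31% of all tested genes, and those markers were lowest in sham replicates 1 and 3.

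**Figure D3:**
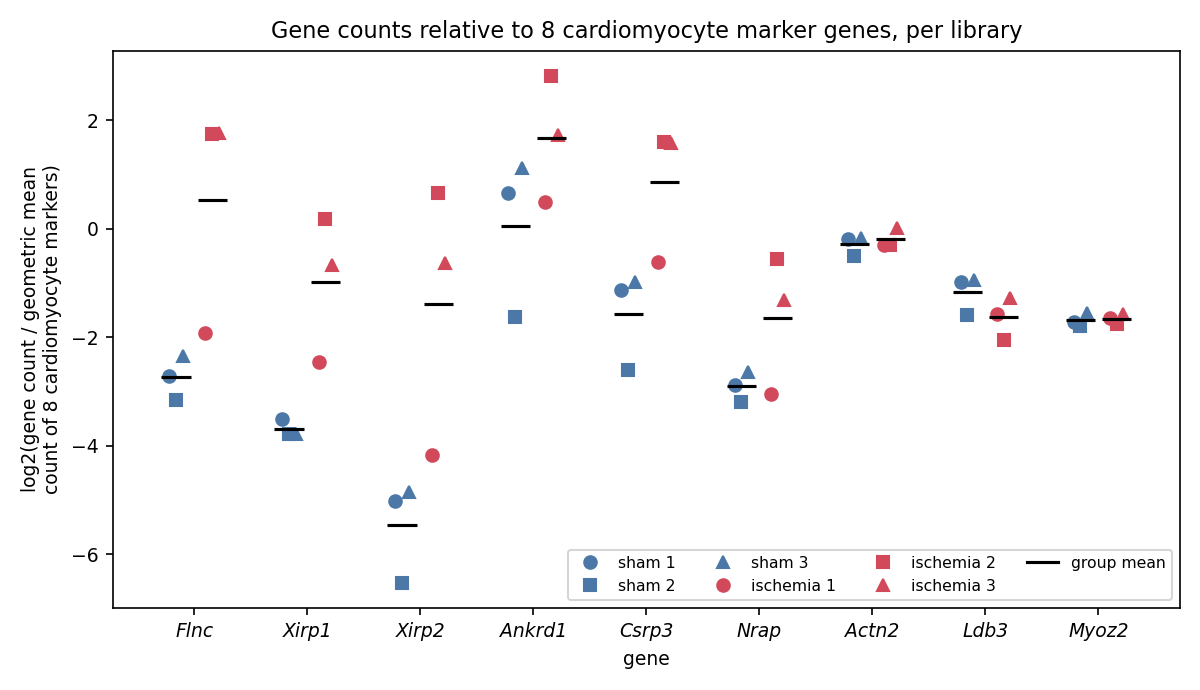
Log2 ratio of each gene's count to the geometric mean count of 8 cardiomyocyte markers in each library, for sham (blue) and ischemia (red), with lines at the group means. Flnc, Xirp1, Xirp2 and Csrp3 separated the groups, whereas Actn2 differed by 0.098 and Myoz2 by 0.034.

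The close relatives of the 9 genes were compared with them within each library. Ankrd2 and Ankrd23, the other muscle ankyrin repeat genes, both rose. Ankrd2, a gene best known from skeletal muscle, had 0.521, 0.031 and 0.854 FPKM in sham and 45.9, 26.1 and 74.9 in ischemia. Its sham values rested on 61, 4 and 95 counts, and its log2 fold change was 6.72 ± 1.08 (SE; edgeR adjusted p 0.0334). Ankrd23 went from 4.10, 4.67 and 6.32 FPKM to 56.7, 57.0 and 113.2, a log2 fold change of 3.84 ± 0.41 (SE; edgeR adjusted p 0.0248). Ischemia replicate 1 stood apart from sham for both, unlike for Flnc, Xirp2 and Csrp3. Both log2 fold changes were above 0 in each of the 19 other fits tried and passed in 13 of them. Ankrd1 remained far more abundant than either. Ankrd23 amounted to 0.143%, 0.666% and 0.179% of the FPKM of Ankrd1 in sham and to 3.09%, 1.31% and 2.88% in ischemia, and these shares did not overlap (exact permutation p 0.1). Ankrd2 amounted to 0.018%, 0.0044% and 0.024% of Ankrd1 in the sham libraries, against 2.50%, 0.601% and 1.91% in the ischemia libraries. Skeletal muscle markers stayed low, with a sum over 7 genes of 3.41 to 6.80 FPKM in sham and 3.65 to 7.14 in ischemia.

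Among the alpha-actinins, Actn1, the form of non-muscle and smooth muscle cells, had 8.93, 7.46 and 17.0 FPKM in sham and 16.2, 74.3 and 68.0 in ischemia, with a log2 fold change of 2.18 ± 0.60 (SE; edgeR adjusted p 0.0717). The groups overlapped, since sham replicate 3 exceeded ischemia replicate 1. Smooth muscle markers summed to 165.3 to 899.8 FPKM in sham and 64.1 to 248.1 in ischemia (1 of 6 fell), and fibroblast markers to 685.0 to 2223 in sham and 263.8 to 681.5 in ischemia (0 of 5 passed). Neutrophil and monocyte markers went the other way, with 143.9 to 199.6 FPKM in sham and 1294 to 8612 in ischemia. The part of these cell types in the values of Actn1 and of the integrin gene Itgb1 was not tested. Actn1 amounted to 0.943%, 0.818% and 1.99% of Actn2 in sham and to 2.57%, 24.9% and 9.52% in ischemia, shares without overlap (exact permutation p 0.1). Actn4 overlapped between the groups (log2 fold change 0.075, edgeR adjusted p 0.867). Among the filamins, Flnc was 170.2%, 182.5% and 97.7% of Flna in sham and 173.4%, 573.9% and 1358% in ischemia. Those shares overlapped (exact permutation p 0.2), and the log2 fold change of Flna (0.40, edgeR adjusted p 0.465) did not pass. Csrp1 and Csrp2, the relatives of Csrp3, had log2 fold changes of -0.083 and -0.10 (edgeR adjusted p 0.885 and 0.890), whose signs changed with the scaling and the library left out. Myoz1, the skeletal muscle relative of Myoz2, lay between 0.387 and 4.40 FPKM, against 276.0 to 937.9 for Myoz2. It was lower in each ischemia library, with a log2 fold change of -1.78 (edgeR adjusted p 0.0980). The nebulin relatives of Nrap were low, with 1.30 to 10.3 FPKM for Nebl and 0.031 to 1.66 for Neb over all libraries. Both overlapped between the groups in FPKM. In CPM Neb overlapped, while Nebl was lower in each ischemia library, with 14.055 in ischemia replicate 1 against 14.057 in sham replicate 2. The log2 fold change of Nebl was -1.81 (edgeR adjusted p 0.0833), and -0.58 with sham replicate 2 as the only control. Among the PDZ and LIM domain genes related to Ldb3, Pdlim5 (log2 fold change 0.67, edgeR adjusted p 0.127) and Pdlim7 (0.78, 0.0959) were higher in each ischemia library, and Pdlim1 (0.45, 0.268) and Pdlim3 (-0.71, 0.386) overlapped.

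**Figure D4:**
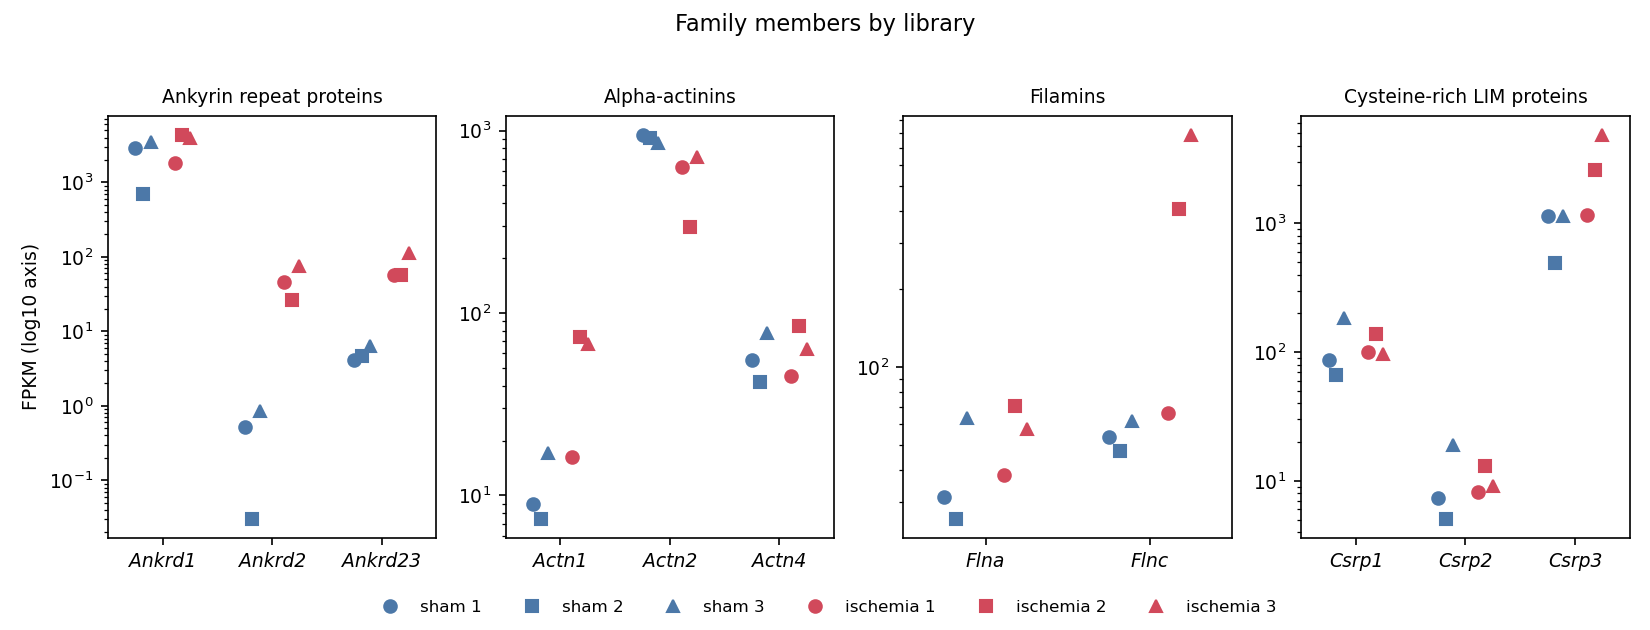
FPKM (log10 axis) of ankyrin repeat, alpha-actinin, filamin and cysteine-rich LIM genes in each library, sham in blue and ischemia in red. Ankrd2 and Ankrd23 separated the groups in all libraries while Ankrd1 overlapped, and Actn1 reached 74.3 FPKM in ischemia while Actn2 was lower in each ischemia library.

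Other genes of these structures were taken from 3 lists. Of 39 tested genes of the Z-disc and costamere, 0 were higher and 0 lower at an edgeR adjusted p under 0.05, and 19 had an unadjusted p under 0.05, where the shares over all genes were 6.71% called and 32.4% at an unadjusted p under 0.05. Their median log2 fold change was 0.037. The ends of the range were Lmcd1, a LIM domain regulator of calcineurin signalling (3.62, edgeR adjusted p 0.0535), and Lmod3, an actin nucleator (-2.09, 0.124). Lmod3 had 3.79, 20.0 and 5.12 FPKM in sham and 3.45, 1.94 and 2.37 in ischemia, so that its value turned on sham replicate 2 (-0.76 to -2.51 over the 19 other fits, -3.24 with that library as the only control). Lmcd1 had 27.2, 64.1 and 59.0 FPKM in sham and 128.3, 831.1 and 1057 in ischemia. Of 26 genes of the intercalated disc and cell adhesion, 1 rose and 0 fell (5.18% and 1.53% over all genes), with a median of -0.26. The gene that rose was Itgb1, integrin beta 1, from 97.0, 66.8 and 115.8 FPKM to 172.7, 383.5 and 345.3 (log2 fold change 1.62 ± 0.34, SE; edgeR adjusted p 0.0478), which passed in 9 of the 19 other fits. Lims2 was at the other end (-1.70, edgeR adjusted p 0.0824, and -2.40 with sham replicate 2 as the only control).

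Of 29 genes of the stretch and load response, 5 rose, 0 fell and 24 did not pass (5.18% higher and 1.53% lower over all genes), with a median of 0.75. Beside Ankrd2 and Ankrd23 these were Tnfrsf12a, the TWEAK receptor (log2 fold change 2.95 ± 0.54, edgeR adjusted p 0.0384), Tead4, a TEAD factor that binds M-CAT motifs (1.76 ± 0.34, 0.0418), and the cytokine gene Il11 (6.38 ± 1.40, 0.0496). Tead4 had 2.09, 2.50 and 2.42 FPKM in sham and 5.13, 12.6 and 7.99 in ischemia. Tnfrsf12a and Tead4 each passed in 12 of those 19 fits, and Il11 in 6 of the 18 in which it was tested. Il11 rested mostly on ischemia replicate 2, with 2572 counts against 143 and 152 in the other ischemia libraries and 8 to 12 in sham. Tnfrsf12a and Il11 are not confined to cardiomyocytes, and neutrophil and monocyte markers, of which 10 of 12 rose, were higher in the same libraries. The lowest of the list was Nppa, a peptide gene of atrial muscle (-2.42, edgeR adjusted p 0.337), which was above 0 (3.93) in 1 of those 19 fits, the one with the atrial marker score as a covariate, of which Nppa is itself a part, and at 5.43 with sham replicate 2 as the only control. Over the 94 tested genes of the 3 lists 6 rose, close to the share over all genes (5.18% higher), with a median log2 fold change of 0.039. When any 1 sham library, or ischemia replicate 3, was left out, edgeR called 0 of the 94 and also 0 of all 13964 genes. It called 3 of the 94 without ischemia replicate 2 (4.09% of all genes) and 20 without ischemia replicate 1 (1490 of all genes higher and 1115 lower).

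**Figure D5:**
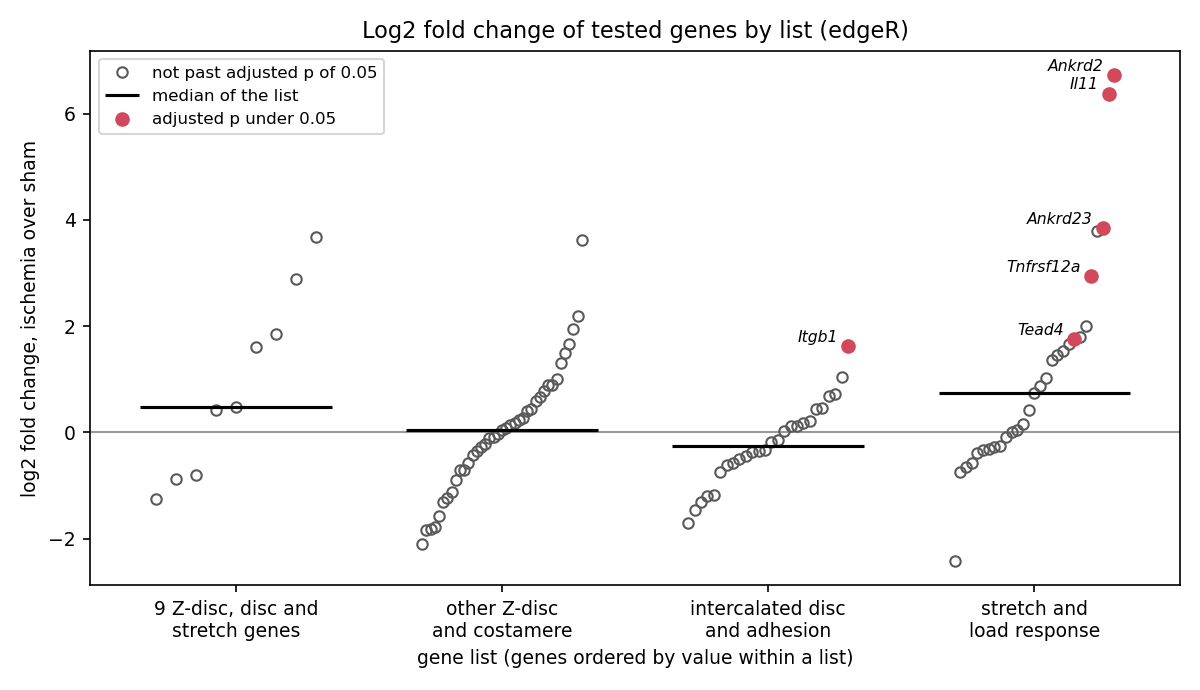
Log2 fold change of ischemia over sham (edgeR) for the tested genes of each list, ordered by value, with the list median as a line and genes at an adjusted p under 0.05 filled in red and named. All 6 genes that passed were above 0, 5 of them in the stretch and load list.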

How the data were processed

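Total RNA of 6 myocardial samples was sequenced after a strand-aware library kit. The authors deposited 1 table with raw read counts per gene, which were whole numbers without normalization, and FPKM per sample, in which genes without reads were set to 0.0001. The submitters' processing notes name STAR and HTSeq. Their versions and the genome build are not given in the sources used here, and reads of close gene copies can be uncertain. Samples were grouped by their titles.

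The test took genes whose FPKM averaged 0.5 or more and used edgeR 4.0.16 (quasi-likelihood test, trimmed mean of M-values scaling, no covariates), two-sided, with Benjamini-Hochberg adjustment over 13964 genes at a threshold of 0.05. SE was derived from the F statistic. For single values an exact permutation test (two-sided) was used, whose smallest p is 0.1. A gene was called not overlapping from its scaled CPM. Log2 ratios to markers used counts plus 0.5. At this depth 3 counts correspond to 0.0377 to 0.0438 CPM, which covers counting error only.

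The 10 genes, the 3 lists, the marker lists and the motifs were chosen with earlier results of these data known. Named genes were the 10 genes, their relatives, list genes past the threshold and the highest and lowest of each list, and not every relative is reported here. Alternatives were 4 other scalings, removal of the mitochondrial genome, 2 other filters, DESeq2 1.42.0, limma 3.58.1 with 3 pseudocounts, a replicate block, an atrial covariate and each sample left out. Tests were also run on simulated data, where edgeR and limma missed most of the changed genes and DESeq2 made more false calls than either. R 4.3.3, Python 3.11.15 and matplotlib 3.10.9 were used.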

Additional observations from a re-analysis of the deposited data

How the results depend on the processing

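For the 9 genes, 155 of 171 values under the other settings kept the direction and the side of the threshold, 13 gained a call and 3 changed sign. Since 0 of the 9 were called and 6 of these settings called 0 of all 13964 genes (the block, the atrial covariate, each sham library or ischemia replicate 3 left out), this does not measure stability. The sign changes were Nrap with the atrial marker covariate (-0.23), and Actn2 (0.098) and Myoz2 (0.033) with scaling to cardiomyocyte markers, which moved the median of all genes to 1.09; 0 of these passed. The number of the 9 genes called higher was 4 with DESeq2, 4 with scaling to cardiomyocyte markers and 0 to 4 with a library left out, where the 4 came without ischemia replicate 1. The number called lower was 1 with DESeq2 (Ldb3) and 0 to 0 with a library left out. Of the 94 genes in the 3 lists, 6 were called, against 36 with DESeq2, 17 with scaling to cardiomyocyte markers, 0 with the atrial covariate and 0 to 20 with a library left out. The number of the 9 genes separating the groups relative to cardiomyocyte markers was 4, against 4 to 6 with a library left out. With 2 settings chosen after seeing the data, sham replicate 2 as the only control gave 0 calls among the 9, the 94 and all genes, where the lone library was assumed to vary like the others, and ventricular markers as the reference gave 0 genes that separated. The cause of these changes was not tested. With the replicate number as a block 0 of the 9 and 0 of the 94 were called, at 4 and 28 with an unadjusted p under 0.05 (3349 of all genes). The labels tie no number to a shared litter, batch or day. Same-numbered samples had correlations of deviations of -0.0498, -0.0736 and -0.187. These cannot show whether such samples shared a batch or day, since deviations within a group offset each other.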

Other observations

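Genes of the desmosome, the junction that anchors intermediate filaments at the intercalated disc, were looked at after their values had been seen. In scaled counts Dsp, Dsg2 and Dsc2 were each lower in all 3 ischemia libraries than in any sham library, as were 19.1% of all tested genes, and with edgeR 0 of the 3 passed. Jup, which encodes the desmosomal protein plakoglobin, overlapped (log2 fold change -0.51, edgeR adjusted p 0.481). Dsp had 64.3, 83.3 and 48.1 FPKM in sham and 38.2, 15.7 and 39.2 in ischemia (edgeR adjusted p 0.151). Hspb7, a small heat shock protein of cardiac muscle, was higher in all 3, with 639.9, 822.6 and 655.4 FPKM in sham and 1318, 2006 and 3867 in ischemia (edgeR adjusted p 0.0839). Des, which encodes the intermediate filament protein desmin, overlapped on the scaled counts, with 789.9, 1208 and 777.8 FPKM in sham and 1455, 2297 and 4704 in ischemia (edgeR adjusted p 0.127). Ischemia replicate 3 was the highest library for both, as for Flnc and Csrp3.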
